A study of Mus musculus with 4 samples.

Results

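The genes described here encode the proteins of the cytosolic ribosome and their close paralogs. They were taken as the autosomal protein-coding genes of the GENCODE M21 annotation of mm10 whose symbol names a protein of the large subunit (Rpl, or Rplp for the stalk) or the small subunit (Rps, Rpsa). This gave 80 of 20807 autosomal protein-coding genes, 49 of the large and 31 of the small subunit. The list follows the symbol alone, so Fau and Rack1, whose proteins or protein parts also sit on the ribosome, were kept apart, as were 4 members of the families on chromosome X (Rpl10, Rpl36a, Rpl39 and Rps4x).

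The study mapped chromatin near PML bodies, nuclear structures built on the PML protein, by ALaP-seq: the peroxidase APEX, fused to PML, marks nearby chromatin with biotin when hydrogen peroxide is added. All 4 samples were E14 mouse embryonic stem cells that carry the APEX-PML knockin and were grown with leukemia inhibitory factor, CHIR99021 and PD0325901. In 2 of them (H2O2+) hydrogen peroxide was given and in the other 2 (H2O2-), the negative controls, it was left out. The file analysed is the authors' merged list of 26496 peaks, which gives positions only. It holds no value for any sample, so treated cells were not compared with controls, the depth is unknown, replicate error was not computed, and the cell line label could not be checked against markers. Whether any peak below reflects closeness to PML bodies was not tested.

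Ribosomal protein genes are among the most strongly transcribed genes of growing cells, and embryonic stem cells, which divide fast, have a high demand for ribosomes. Their genes are scattered over the chromosomes, are mostly short, usually have CpG-rich promoters and often host small nucleolar RNAs in their introns. Their transcripts typically begin within a run of pyrimidines, the terminal oligopyrimidine tract, through which mTOR signalling controls their translation. Each assembled ribosome needs about equal amounts of nearly every subunit, and the proteins are made in the cytoplasm and assembled with ribosomal RNA in the nucleolus.

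A promoter peak was counted where a listed peak overlapped, by 1 bp or more, the stretch reaching 1 kb to each side of the gene model's 5′ end. Such a peak was present at 72 of the 80 genes (90%, exact Clopper-Pearson 95% interval 81.2 to 95.6%). Among all autosomal protein-coding genes the share was 40.3%. The interval covers counting error only, since genes are not replicates, and no test was made over the gene list. The 72 genes had 84 distinct promoter peaks, which together covered 31635 bp. The share was 91.8% for the large subunit (45 of 49, interval 80.4 to 97.7%) and 87.1% for the small subunit (27 of 31, interval 70.2 to 96.4%). The intervals of the subunits overlap over most of their length. Without the paralogs whose symbols end in l or l1, the counts were 40 of 43 and 26 of 30.

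The peaks lay at the transcription start rather than at the edges of the window. At 12 of the 72 members with a peak there were 2 or more, against 7.19% of all autosomal genes and 17.9% of those with a promoter peak. At 57 of the 80 genes (71.2%) a peak covered the 5′ end itself, against 24.2% of all autosomal genes. Among genes with a promoter peak the shares were 79.2% for members and 59.9% for all autosomal genes. The midpoint of the widest promoter peak lay at a median of 54 bp downstream of the 5′ end (quartiles -31.5 and 122 bp). For all autosomal genes with a promoter peak the median was -5 bp, with quartiles of -126 and 122 bp. The midpoint was downstream at 48 of 72 members (66.7%) and at 48.7% of all genes with a peak. By annotation it fell in an exon of the gene at 41 members, in an intron at 7 and outside the gene at 24. These places were not counted over all autosomal genes, so no preference of the family can be read from them. The gene model starts at its farthest annotated 5′ end, so a position downstream of it can still be upstream of another start of the same gene.

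**Figure D1:**
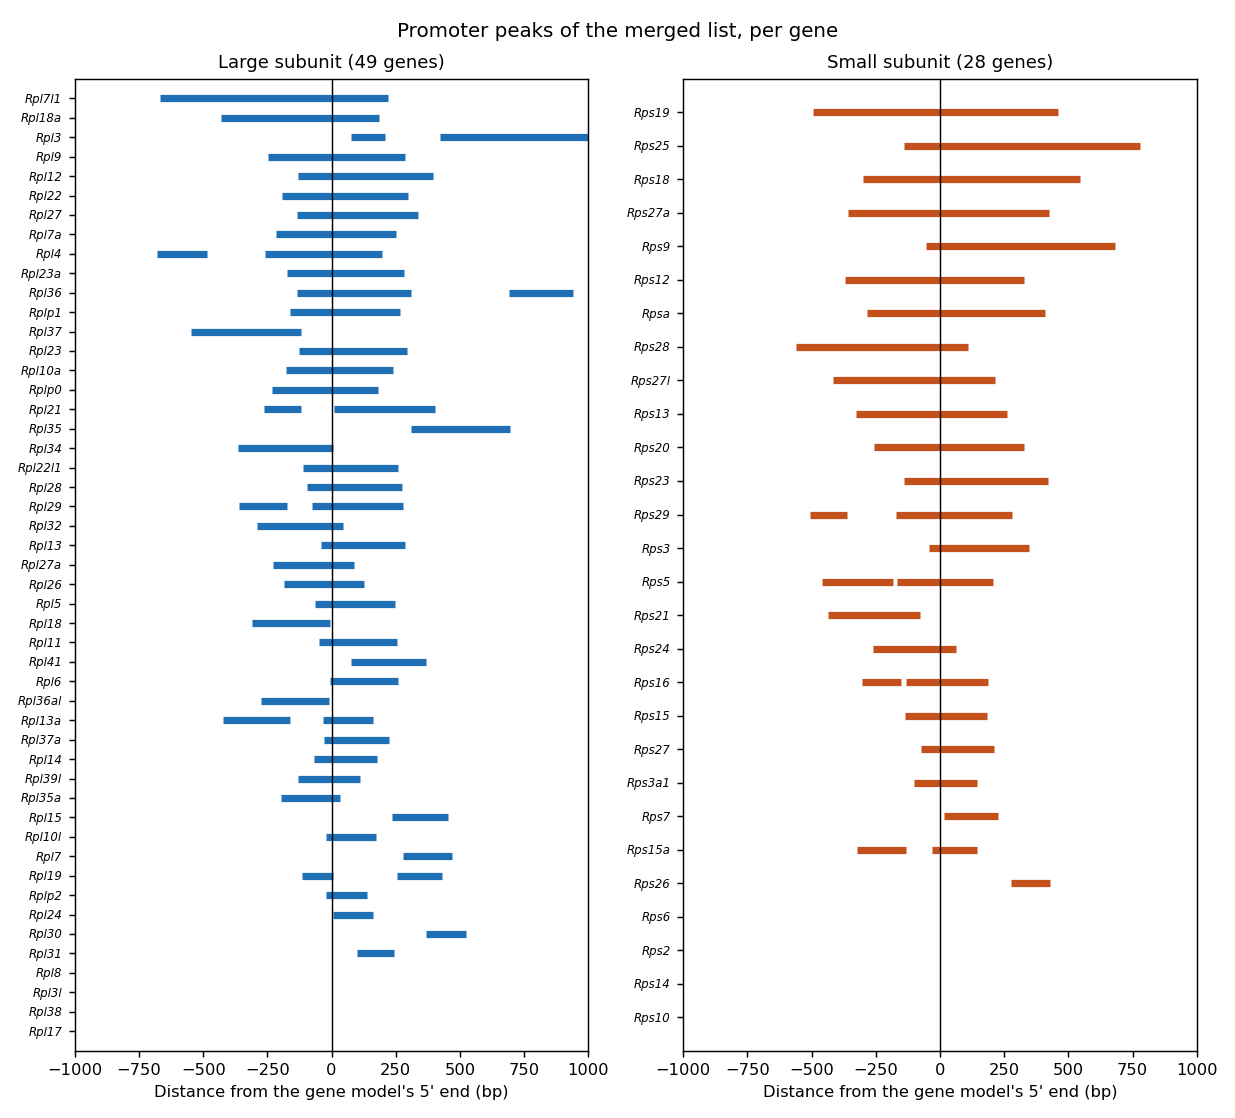
Promoter peaks of 49 large-subunit (left) and 28 small-subunit genes (right), drawn to scale against the distance from the 5′ end of the gene model in bp, with genes ordered by their widest peak. Peaks crowd around the 5′ end, and 8 genes at the bottom of the panels have none within 1 kb.

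Promoter sequences of 9 genes are shown because they carry the contrasts described below: wide peaks (Rps25, Rps18), parents beside their paralogs (Rps27 and Rps27l, Rpl22 and Rpl22l1), a paralog without introns (Rpl10l) and CpG-rich starts without a peak (Rps6, Rpl38). They come from RefSeq (GRCm38.p6) and run from 120 bases upstream of the RefSeq start to 20 bases into the transcript, 5′ to 3′ on the gene's strand. Capitals mark the short words searched for on both strands: GGGCGG, the core of the SP1 motif, CCGGAAG of the ETS family, AAGATGGC of YY1, TATAAA of the TATA box, CTTTTC of pyrimidine-rich starts, or their reverse complements.
Rps25: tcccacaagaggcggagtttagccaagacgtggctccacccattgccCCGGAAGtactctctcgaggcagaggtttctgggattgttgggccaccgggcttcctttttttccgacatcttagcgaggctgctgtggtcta
Rps18: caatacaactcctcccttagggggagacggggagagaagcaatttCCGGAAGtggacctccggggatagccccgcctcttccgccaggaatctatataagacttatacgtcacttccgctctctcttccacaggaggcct
Rps27: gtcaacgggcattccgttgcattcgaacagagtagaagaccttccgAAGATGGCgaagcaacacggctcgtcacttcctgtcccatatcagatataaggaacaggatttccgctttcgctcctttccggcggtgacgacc
Rps27l: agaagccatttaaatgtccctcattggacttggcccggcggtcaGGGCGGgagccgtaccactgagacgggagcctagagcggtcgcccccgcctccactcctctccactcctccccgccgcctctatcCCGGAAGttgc
Rpl22: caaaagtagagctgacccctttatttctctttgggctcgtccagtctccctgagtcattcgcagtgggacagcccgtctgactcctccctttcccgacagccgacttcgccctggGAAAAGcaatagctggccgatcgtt
Rpl22l1: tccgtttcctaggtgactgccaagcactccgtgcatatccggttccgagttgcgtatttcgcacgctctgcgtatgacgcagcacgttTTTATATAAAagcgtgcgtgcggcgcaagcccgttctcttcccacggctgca
Rpl10l: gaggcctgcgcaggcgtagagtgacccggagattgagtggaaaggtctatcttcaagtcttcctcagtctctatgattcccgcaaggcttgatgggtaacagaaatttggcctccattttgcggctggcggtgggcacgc
Rps6: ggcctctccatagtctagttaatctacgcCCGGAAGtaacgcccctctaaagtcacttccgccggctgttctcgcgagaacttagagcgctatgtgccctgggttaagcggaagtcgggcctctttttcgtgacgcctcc
Rpl38: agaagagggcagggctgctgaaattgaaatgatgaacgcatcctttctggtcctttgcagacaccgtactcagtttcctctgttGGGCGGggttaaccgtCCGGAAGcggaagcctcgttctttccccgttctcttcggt
These stretches lie at chr9:44407594-44407733, chr17:33955646-33955785 (minus strand), chr3:90213629-90213768 (minus strand), chr9:66945966-66946105, chr4:152325606-152325745, chr3:28805388-28805527, chr12:66284382-66284521 (minus strand), chr4:86857348-86857487 (minus strand) and chr11:114668460-114668599. All 140 printed bases lay under a peak at Rps25, Rps18, Rps27l, Rpl22 and Rpl22l1, 98 at Rps27, 42 at Rpl10l and 0 at Rps6 and Rpl38.

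The ETS word CCGGAAG, searched on both strands between 500 bp before and 100 bp after the 5′ end, was present at 28 of 80 ribosomal protein genes (35.0%, exact interval 24.7 to 46.5%). Its share was 14.0% over all autosomal genes, 24.7% over those with a promoter peak and 23.1% over the more CpG-rich genes (classes 6 to 10, defined below), so the interval begins at about the share of genes with a peak. It occurred at 25 members with a promoter peak and at 3 without one, among them Rps6 and Rpl38, printed above. The copies in the printed stretches of Rps25 and Rps18, under wide peaks, lie near RefSeq starts 575 and 336 bp downstream of the gene model's 5′ end, beyond the searched stretch, and are not part of this count. Among members with a peak, the median of the widest was 315 bp for the 25 with the word and 412 bp for the 47 without it. The SP1 word GGGCGG was present at 48 members (60.0%), against 50.1% of all genes and 77.8% of CpG-rich ones, of which the first lies inside the members' interval (48.4 to 70.8%) and the second above it. The shares of the YY1 word AAGATGGC (10% of members, 5.12% of all genes), the E-box CACGTG (17.5% and 12.1%), the NRF1 word GCGCATGC (6.25% and 4.22%), the TATA word TATAAA (18.8% and 25.6%) and the pyrimidine words CTTTTC (45.0% and 40.8%) and CTCTTTCC (11.2% and 5.99%) each had an interval that held the share of all genes. Over the more CpG-rich genes the shares of these words were 7.08%, 16.4%, 7.18%, 15.6%, 37.6% and 5.74% in the same order. Each of these also lay inside the members' interval. A match describes letters, not binding.

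The RefSeq table matched 60 of the 80 genes. At 12 of these (20.0%) the annotated start was a C followed by at least 4 pyrimidines, against 2.19% of all 15704 autosomal genes in the table. The longest run of C and T within 25 bp either side of the start had a median of 7 bases in the members (range 3 to 21) and 5 in all genes. Among the printed promoters the run was 14 bases at Rps25, 11 at Rps18 and 10 at Rps6, Rpl38 and Rpl22l1. It was 9 at Rps27 and Rps27l, 5 at Rpl10l and 4 at Rpl22. At Rps19 and Rpl7l1, which had wide peaks (958 and 890 bp) and are not printed, it was also 4. Long runs were thus present at genes with wide peaks and at genes with none, and short runs were also found at genes with wide peaks.

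Promoter peaks were more frequent at CpG-rich genes, and most ribosomal protein genes are CpG-rich. Autosomal genes were divided into 10 classes of equal size by the CpG observed/expected ratio over 500 bp either side of the 5′ end, whose median was 0.799 in the members and 0.568 in all genes. In the upper classes, 6 to 10, 70 of 73 members had a promoter peak (95.9%), against 67.4% of all genes in those classes. In class 9, which held more members than any other class, the count was 20 of 21 against 73.6% of all genes, and in class 7 it was 14 of 14 against 66.6%. The other 7 members lay in classes 2 to 5, where 2 of 7 had a peak, Rpl18 (304 bp) and Rpl39l (241 bp). Of all genes in classes 1 to 5, 13.2% had one.

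**Figure D2:**
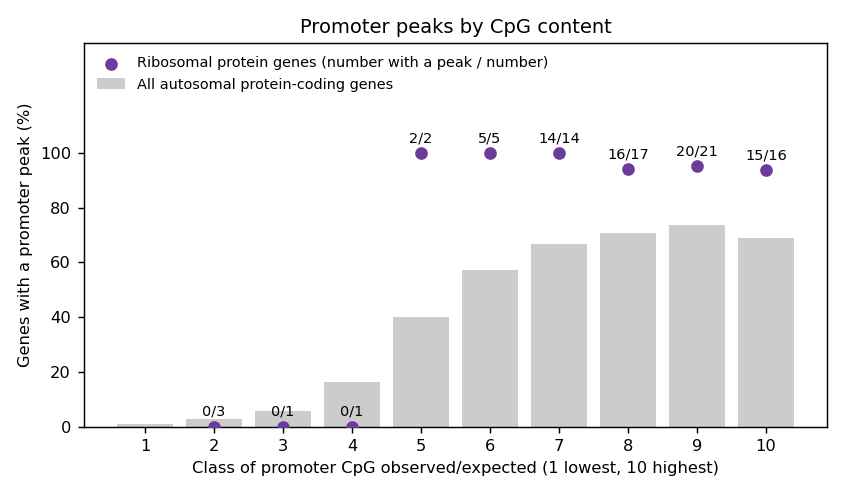
Share of genes with a promoter peak (percent, vertical axis) in 10 classes of promoter CpG observed/expected (horizontal axis), as bars for all autosomal protein-coding genes and points for ribosomal protein genes, labelled with the number with a peak over the number in the class. The points of classes 5 to 10 lie above the bars, and those of classes 2 to 4 lie at 0 of 5 genes.

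Of the 8 genes without a peak at the gene model's start, 4 had one at another annotated start. Rps2, whose protein lines the mRNA entry channel, had a peak of 579 bp (chr17:24719682-24720260) at a start 1947 bp downstream. Rpl17, a protein of the tunnel exit, had one of 396 bp at a start 1919 bp downstream. Rps10 had one of 240 bp (chr17:27635177-27635416) at a start 1425 bp downstream, and Rps14 one of 283 bp at a start 27498 bp downstream. The model starts of these 4 genes lie in CpG classes 2 to 4. With any annotated transcript start allowed, 76 of 80 members had a promoter peak (95.0%), against 44.5% of all autosomal genes.

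The remaining 4 genes had no peak at any annotated start. Rps6, the small-subunit protein phosphorylated by the S6 kinases, lies on chromosome 4 (start 86857412, minus strand) in CpG class 10. Its nearest peak was 54589 bp away, and it had no distal peak within 50 kb. Rpl38, known in mice for its role in the translation of Hox mRNAs, lies on chromosome 11 (start 114668524) in class 9, and its nearest peak was 6929 bp away. Rpl8, a large-subunit protein close to the catalytic centre, lies on chromosome 15 (start 76904078) in class 8, with the nearest peak 4022 bp away. Rpl3l, the striated-muscle paralog of Rpl3, lies on chromosome 17 (start 24727820) in class 2, with the nearest peak 3324 bp away. Reads were mapped to a repeat-masked genome, and soft-masked bases made up 10.8% of the 2 kb around the start at Rps6, 30.9% at Rpl38, 14.0% at Rpl8 and 24.3% at Rpl3l, against a median of 15.5% over the members. The part of masking in the missing peaks was not tested.

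Width is the only value the list gives of a peak. The widest promoter peak of the members had a median of 371 bp (quartiles 263.5 and 501.5 bp, range 142 to 958 bp), against 282 bp for all autosomal genes with a promoter peak. In CpG classes 6 to 10 the medians were 373.5 and 290 bp. Of the 72 members with a peak, 52 lay at or above the median of all genes with one and 12 in their widest 10%. At 40 of 80 members the widest promoter peak reached the upper quartile of the whole list (354 bp), against 14.3% of all autosomal genes. Those shares include genes without a peak. Among genes with a promoter peak the counts were 40 of 72 members and 2984 of 8386 autosomal genes.

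Small-subunit genes had the wider peaks of the family, with much overlap. Their median was 453 bp (quartiles 320.5 and 698.5 bp, n = 27 genes) and that of the large subunit 335 bp (quartiles 252 and 430 bp, n = 45 genes). Of the 12 members in the widest 10% of all genes, 10 were of the small subunit and 2 of the large, and of the 8 widest members 7 were of the small subunit. The ranges were 142 to 958 bp and 145 to 890 bp, so the subunits did not separate, and the difference was not tested. The 5′ end was covered by a peak at 24 of 31 small-subunit and 33 of 49 large-subunit genes. The median CpG ratio was 0.823 in small-subunit and 0.761 in large-subunit genes. All 27 small-subunit genes with a peak lay in CpG classes 6 to 10, and the 43 large-subunit genes with a peak in those classes had a median width of 356 bp.

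The widest of all was at Rps19, the gene most often mutated in Diamond-Blackfan anemia (958 bp, chr7:24883875-24884832), with its midpoint 17 bp upstream of the start. Rps25, needed by several viral internal ribosome entry sites, followed with 924 bp (chr9:44406997-44407920). Rps18, of the head of the small subunit, had 843 bp (chr17:33955457-33956299). Rps27a, made as a fusion with ubiquitin, had 786 bp (chr11:29547684-29548469). Rps9 had 738 bp and Rps12 701 bp. The only large-subunit gene among these 8 was the paralog Rpl7l1 (890 bp, chr17:46782451-46783340). Among the narrow ones, Rpl31 had a peak of 145 bp, Rps26 of 151 bp, Rpl30 of 156 bp and Rpl24 of 158 bp. Narrow peaks were thus found in both subunits.

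**Figure D3:**
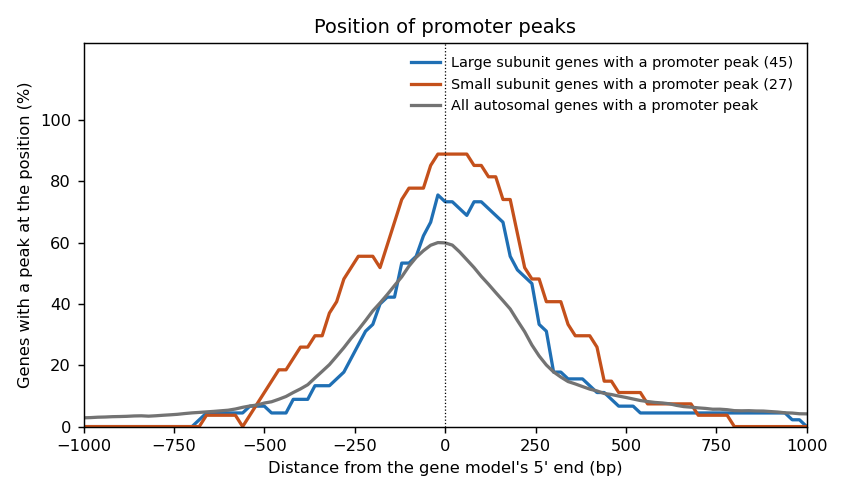
Share of genes with a promoter peak that have peak sequence at each position (percent), within 1000 bp of the 5′ end, for 45 large-subunit, 27 small-subunit and all autosomal genes. At the 5′ end the shares are 73.3%, 88.9% and 59.9%.

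By role, the 4 genes of the stalk, which recruits translation factors to the ribosome, all had a peak over the start: Rpl12 (527 bp), Rplp1 (430 bp), Rplp0 (412 bp) and Rplp2 (164 bp). The widths of Rplp1 and Rplp2, which encode the paired acidic proteins of the stalk, were thus unlike. Rpl5 and Rpl11, which with a small ribosomal RNA form the particle that binds Mdm2, had peaks of nearly equal width (314 and 303 bp), but 0 and 6 distal peaks. Of 8 genes whose proteins line the exit tunnel or its rim, 7 had a peak (median 389 bp), and Rpl17 had one at another start. Of 7 genes of the mRNA channel and decoding region, 5 had a peak (median 561 bp), among them Rpsa (696 bp) and Rps28 (669 bp), and Rps2 and Rps14 had one at another start. Of 20 genes linked to Diamond-Blackfan anemia, 19 had a peak (median 304 bp), and Rps10 had one at another start. These lists overlap and are small, and each share stands beside 40.3% of all autosomal genes.

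Most paralogs of core proteins had a promoter peak. Of the 7 paralogs marked by l or l1, 6 had a promoter peak (85.7%, exact interval 42.1 to 99.6%). Rpl7l1, the paralog of Rpl7 linked to precursor particles of the large subunit, had 890 bp, while Rpl7 had 192 bp with its midpoint 373 bp downstream. Rps27l, a p53 target, had 633 bp (chr9:66945668-66946300) and Rps27 had 287 bp. Rpl22 had 493 bp and Rpl22l1, which can replace it, 370 bp. Both have CpG-rich promoters, and Rpl22l1 has the word TATAAA on both strands in the stretch printed above. Rpl3 had 2 promoter peaks, one of 134 bp whose midpoint was 142 bp downstream and one of 575 bp at 711 bp downstream, shared with the promoter window of Syngr1. Rpl3l had none. The paralog was thus wider in some pairs and narrower or absent in others.

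For 3 paralogs the parent is on chromosome X, and in each pair the autosomal copy had the peak. Rpl10l, a copy without introns known from the testis, had a peak of 197 bp over its start (chr12:66284227-66284423), Rpl36al one of 264 bp and Rpl39l, also known from male germ cells, one of 241 bp. Rpl10, Rpl36a and Rpl39 had none, nor did Rps4x, and none of these 4 had a distal peak within 50 kb. Their CpG ratios were 0.75, 0.741, 0.607 and 0.507. Only 4.22% of the 948 protein-coding genes of chromosome X had a promoter peak, so the X-linked members stand beside a chromosome that is nearly empty in this list. The peak of Rpl36al lies upstream of its start and falls both in its promoter window and in that of the divergent gene Mgat2.

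Pseudogenes of the family, copies of its mRNAs inserted elsewhere, had few peaks. Of 259 autosomal pseudogenes named after these genes, 7 had a peak within 1 kb of the start (2.70%, exact interval 1.09 to 5.49%), against 2.16% of all 9193 autosomal processed pseudogenes. The widest were near Rpl30-ps6 (426 bp), Rps18-ps3 (413 bp), Rpl36-ps9 (280 bp) and Rpsa-ps4 (178 bp). Their midpoints lay 1198, 991, 1033 and 360 bp from the start, and no peak of the 7 was at the promoter window of a protein-coding gene. How reads that match several copies were treated is not given in the sources used here.

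Several members shared their promoter peak with a neighbour. A protein-coding gene started within 1 kb upstream on the other strand at 9 members (11.2%). The share was 6.96% over all autosomal genes and 13.6% over those with a promoter peak. Of the 9 members, 8 shared a peak with that neighbour. Examples were Rps28 with Ndufa7, a gene of respiratory complex I (669 bp), and Rpl9 with Lias, the lipoic acid synthase gene (536 bp). In all, 15 members shared a promoter peak with another protein-coding gene. The share of all autosomal genes that share a promoter peak was not computed, so these counts have no background. They included Rps25 with Trappc4, Rps18 with Vps52 and Rps27a with Clhc1, so the wide peaks of these 3 cannot be assigned to the ribosomal protein gene alone. Rps19 and Rpl7l1 shared theirs with no other protein-coding gene.

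Small nucleolar RNA genes lay inside 28 of the 80 genes (35.0%), in the same direction, against 1.17% of all autosomal protein-coding genes, and they numbered 56. A promoter peak was present at 26 of the 28 hosts, with a median of 411 bp, and at 46 of the 52 other members, with a median of 359.5 bp. Of all autosomal host genes, 66.0% had one. Rpl4 held 5 of these RNA genes and Rpl13a held 4. The members were short, with a median length of 3400 bp against 17629 bp for all autosomal genes.

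Away from the promoter, the members had more peaks nearby than the average gene, and more neighbours. Distal peaks, with midpoints within 50 kb of the 5′ end and more than 1 kb from it, numbered 4.22 ± 3.03 per member (SD over 80 genes), against 2.25 ± 3.08 over all autosomal genes. Over autosomal genes with a promoter peak the number was 3.07 ± 3.50. At least 1 distal peak was found at 74 of 80 members (92.5%), against 63.8% of all genes and 79.1% of those with a promoter peak. The large and small subunits had nearly the same mean, 4.12 ± 3.14 (n = 49 genes) and 4.39 ± 2.89 (n = 31 genes). The members also had more other protein-coding starts within 50 kb (mean 3.39 against 2.26, and 2.38 over genes with a promoter peak). Among genes with 0 or 1 such start the means were 2.08 distal peaks for 25 members and 1.32 for all genes, among those with 2 to 4 they were 4.29 and 2.43, and among those with 5 or more 6.38 and 4.76. Of the 325 distinct distal peaks, 147 (45.2%) lay at the promoter of a protein-coding gene, against 33.2% of the whole peak list. Without such peaks the mean was 2.33 per member against 1.35, and 64 members had at least 1, against 50.7% of all genes. Over autosomal genes with a promoter peak this mean was 1.82. Only the gene model's 5′ end defined a promoter in these counts. Peaks at other annotated starts, such as those of Rps2, Rpl17, Rps10 and Rps14, therefore counted as distal. A peak outside promoters can thus still lie at an annotated start.

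**Figure D4:**
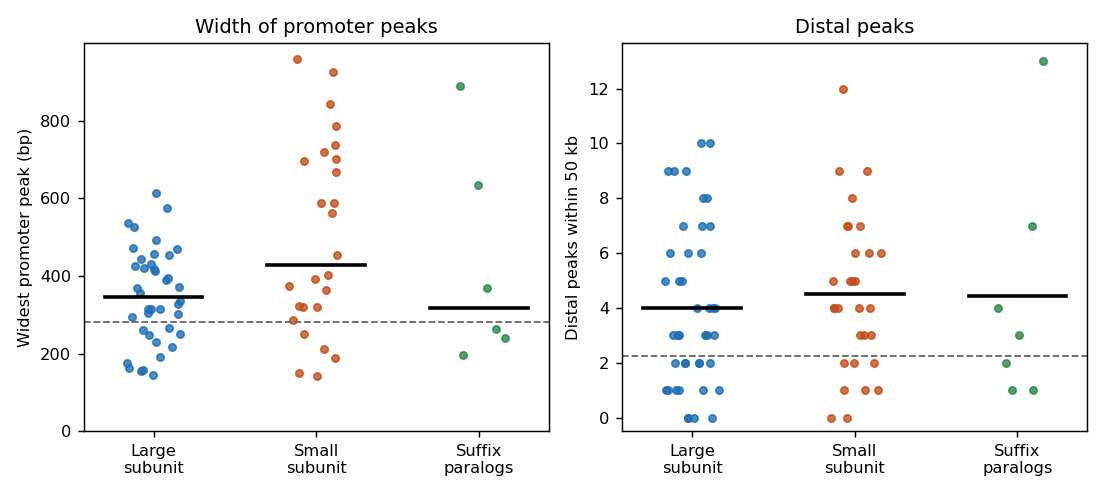
Left, width of the widest promoter peak (bp) for each gene with one; right, number of distal peaks within 50 kb for each gene. Points are genes (paralogs with l or l1 shown apart), black lines are medians on the left and means on the right, and dashed lines are the median of 282 bp over all autosomal genes with a promoter peak and the mean of 2.25 distal peaks over all autosomal genes.

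The number of distal peaks ranged from 0 to 13 among the members. Rpl7l1 had 13 distal peaks, 10 of them outside promoters, with 3 other starts nearby. Rps21 had 12, also 10 of them outside promoters. Rpl23a, which docks the signal recognition particle at the tunnel exit, and Rpl36 had 10 each, and Rpl23, Rpl28, Rpl29 and Rps16 had 9 each. At Rps18, by contrast, 1 of 8 distal peaks lay outside promoters. No distal peak was found for 6 members, among them Rpl5, Rpl31, Rpl37, Rpl37a and Rps6. Of these 6, all but Rps6 had a promoter peak. Neighbouring members can count the same distal peaks: Rps2 and Rpl3l start 9.7 kb apart on chromosome 17 and Rps29 and Rpl36al 24.9 kb apart on chromosome 12. Neither pair could share a promoter peak. Rps2 and Rpl3l had none at these starts, and the starts of Rps29 and Rpl36al lie farther apart than the widest listed peak (12734 bp).

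Other genes of ribosome production are set here beside the 40.3% of all autosomal genes with a promoter peak (67.4% in CpG classes 6 to 10) and the median of 282 bp for their widest peaks. Fau (447 bp) and Rack1 (564 bp) had one. Of 41 genes of ribosome assembly, 34 had one (82.9%), with a median of 299.5 bp. Wide ones lay at Pes1 (700 bp), Bysl (609 bp), Bop1 (602 bp) and the nucleophosmin gene Npm1 (599 bp). Narrow ones lay at Fbl (121 bp), which encodes the methyltransferase fibrillarin, and Imp3 (109 bp). Dcaf13, Gnl2, Gnl3, Imp4 and Rrp12 had none, nor did the X-linked Dkc1 and Las1l. Of 11 genes of RNA polymerase I and its factors, which transcribe ribosomal RNA, 10 had one, with a median of 203.5 bp, and Polr1c had none. The widths of these genes were not tested against those of the ribosomal protein genes.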

How the data were processed

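Per the series' design text, the authors trimmed reads with Trimmomatic, mapped them with bowtie2 version 2.3.5.1 to repeat-masked mm10 and removed blacklisted and greylisted regions with bedtools. How peaks were called and how replicates were merged is not given in the sources used here. In the authors' file, the deposited peak list gives chromosome, start and end, with no score and no value per sample, so samples were not compared, and it is unknown whether the controls entered it. Peaks were joined to GENCODE M21 on GRCm38, the assembly that mm10 names; 0 of 26496 peaks ran past a chromosome end. The overlap code was checked on simulated peaks. Python 3.11.15, pandas 2.3.3, scipy 1.17.1 and pysam 0.24.0 were used. The genes named are those without a promoter peak, the 8 with the widest, the 6 with the most distal peaks and ties, paralogs with their parents, stalk genes, Rpl5 and Rpl11, X-linked genes, up to 6 that share a peak and 4 pseudogenes; others serve as examples chosen after their values were seen. The members and lists were chosen with earlier results of these data known. Alternatives covered the window, start site, overlap, peak width, distal distance and sequence window. Some genes are counted but not reported here by name or drawn singly.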

Additional observations from a re-analysis of the deposited data

How the results depend on the processing

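The merged list has no score, no samples and no depth, so no replicate could be left out. No paired analysis was possible because the list carries no value for any sample. Genes with a promoter peak numbered 72 of 80 with a window of 500 bp (37.9% of all autosomal genes) or with the midpoint required inside 1 kb (39.8%), 75 with 2 kb (42.3%), 76 with any annotated start (44.5%), 74 with any RefSeq start (chosen after seeing the data), 60 with peaks at or above the median width (26.0%) and 57 where a peak had to cover the 5′ end (24.2%). With peaks at or above the upper quartile of width they fell to 40 (14.3% of all autosomal genes), 22 of the large subunit and 3 of the 7 paralogs; the small subunit then had 18. The median width ranged from 371 to 402 bp. Pseudogenes with a peak numbered 3 with 500 bp, 14 with 2 kb, 1 where the start had to be covered, 3 at or above the median width and 2 at or above the upper quartile. The shares over all processed pseudogenes in these settings were not computed, nor was the share over all autosomal genes with any RefSeq start. The count of 74 with any RefSeq start exceeds the 60 members that the RefSeq table matched, so members without a match also entered it. The source of their starts is not given here. Mean distal peaks per member were 1.94 within 20 kb, 7.24 within 100 kb, 2.33 without peaks at protein-coding promoters and 2.21 with the wider peaks; over all autosomal genes the means were 0.881, 4.46, 1.35 and 1.15 in the same order. For the large subunit the means were 1.98, 6.84, 2.29 and 2.06, and for the small subunit 1.87, 7.87, 2.39 and 2.45, so the small-subunit mean was the lower one within 20 kb. From 250 bp upstream to 50 bp downstream, GGGCGG was found at 43.8% of members (43.8% of all autosomal genes), TATAAA at 10% (12.7%) and CTTTTC at 25% (21.7%). On the sense strand alone, GGGCGG was found at 32.5% (34.1%), CCGGAAG at 23.8% (8.01%) and CTTTTC at 27.5% (22.1%), so the members' share of GGGCGG was not above that of all genes in either setting. A shorter window or 1 strand holds fewer letters. The cause of the other shifts was not tested.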
